A study of Mus musculus with 6 samples.

Results

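Oxidative phosphorylation is carried out in the inner mitochondrial membrane by complexes I to V, and the 85 genes described here encode their nuclear subunits. They were taken from the 24421 genes of the deposited table by symbol: Ndufa, Ndufb, Ndufc, Ndufs and Ndufv genes with a number (complex I, 36 genes), Sdha to Sdhd (complex II, 4), the Uqcr genes with Cyc1 (complex III, 9), the Cox4 to Cox8 genes (complex IV, 18), the Atp5 genes (complex V, 17), and Cycs, cytochrome c. The symbols were used as the table gives them. Ndufa4 is now placed in complex IV, and Atp5s and Atp5sl are not structural subunits of the ATP synthase, although each carries its group's symbol here. The 13 subunits encoded by mitochondrial DNA were not analysed here.

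Poly(A) RNA came from whole hearts of C57/Bl6 mouse embryos at E18.5. There were 3 libraries of Gas2l3 -/- hearts and 3 of wildtype hearts, with no treatment in either group. The Gas2l3 protein is known to bind the actin and microtubule cytoskeleton, and the series title names a defect of cytokinesis in cardiomyocytes after its deletion. Nothing in the labels says whether a sample is a single embryo or a pool, so the spread behind the p-values may be technical in part, and the deleted part of Gas2l3 is not stated.

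Electrons from NADH enter at complex I and those from succinate at complex II. Complex III passes them to cytochrome c, complex IV passes them to oxygen, and complex V uses the proton gradient built on the way to make ATP. Heart muscle depends on this pathway and moves towards it around birth. Complex IV also has subunits with a form made mainly in heart and skeletal muscle (Cox6a2, Cox7a1, Cox8b in the mouse) and a form made in most tissues (Cox6a1, Cox7a2, Cox8a).

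Whole reads were recovered from the FPKM values (fragments per kilobase, scaled by 1 factor per library) and the authors' mean normalized count per gene. They came to between 3414257 and 7732674 per library, with the lowest number in wildtype replicate 1. That factor did not follow read totals alone. It was 1.29 in wildtype replicate 2 and 1.03 in wildtype replicate 3, at 7605745 and 7732674 reads. Gas2l3 stood at 4.03, 2.99 and 3.06 FPKM in Gas2l3 -/- libraries, against 10.3, 4.12 and 2.48 FPKM in wildtype libraries. The groups overlapped (log2 fold change -0.47, SE 0.44, adjusted p = 0.966 by limma; 0.047 without wildtype replicate 1). A value per gene includes reads of any exons that remain, so it does not check the genotype, and the groups are named as labelled. Wildtype replicate 3 stood apart: across 12071 genes its deviations from the gene means correlated with GC content of the transcript at 0.70, against -0.48, -0.13 and -0.16 in Gas2l3 -/- replicates 1, 2 and 3, and -0.48 and -0.07 in wildtype replicates 1 and 2.

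None of the subunit genes passed the test between Gas2l3 -/- and wildtype hearts. Of the 85 genes, 82 had 1 FPKM or more in 3 or more libraries and entered limma on log2(FPKM + 0.5), a scale on which fold changes of low genes are understated. At an adjusted p under 0.05 the test called 0 of 82, against a percent called of 0 over all 12121 tested genes. At an unadjusted p under 0.05 there were 0 of 82, against 3.25% (394) of all genes, and the smallest was 0.1 for Atp5sl. In limma-voom on the recovered reads, 0 members were called, beside 0% of all genes, and 0 had an unadjusted p under 0.05, beside 3.09%. In the authors' deposited table none, 0 of the 77 members with an adjusted p had one under 0.05 (the lowest was 0.998), against 0.0572% of 12243 genes called higher and 0.0163% called lower. At an unadjusted p under 0.05 that table held 1 of 79 members, Cox4i1 (p = 0.0465), beside 2.95% of 17407 genes in the authors' deposited table. The median SE of a member's log2 fold change was 0.52 in the main fit, which pairs no libraries. Changes of the size of the medians by complex below were thus not detectable in it with 3 libraries a group. The median SE was 0.38 with replicate number as a block, 0.27 with GC and length trends removed, and 0.24 with both. Those fits called 0 members too.

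The subunits were among the most abundant transcripts of the heart. Means over the 6 libraries of the tested members ran between 12.3 and 3183 FPKM with a median of 681 FPKM, where the median of all tested genes was 10.4 FPKM, and 74 of 82 stood above the 95th percentile. Together they took 10.2%, 13.6% and 10.8% of all FPKM in Gas2l3 -/- replicates 1, 2 and 3, against 10.3%, 13.9% and 15.1% in wildtype replicates 1, 2 and 3. The share in replicates 1 and 2 was thus close between the groups, and wildtype replicate 3 was the highest of the 6 libraries. Between 22 and 58832 reads lay behind a value of a tested member.

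The 3 members that were not tested were at or near 0. Cox8c, a form of subunit VIII, was listed at 0 in every library. Cox7b2, a form of subunit VIIb, stood at 0.286, 0.343 and 0 FPKM in Gas2l3 -/- libraries, against 0.492, 0 and 0 FPKM in wildtype libraries. Ndufs5, a subunit of complex I, was listed at 0.305 FPKM in Gas2l3 -/- replicate 1 and at 0 in the other 5 libraries. Since every heart cell needs complex I, its listing at 0 cannot be read as absence of the transcript. Ndufb4 and Atp5l, which averaged 63.5 and 58.9 FPKM, stood far below most partners in their complexes. How reads shared with near-identical copies were counted is not stated in any source used, so the levels of Ndufb4 and Atp5l are uncertain. Ndufa11 averaged 148 FPKM. Its 936 to 5517 reads per library were close to those of Ndufs7 (915 to 6012), which averaged 570 FPKM. Behind 1 FPKM lay 15.7 normalized reads for Ndufa11 and 4.44 for Ndufs7, so its low FPKM was not a lack of reads.

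Complex by complex, the middle of the fold changes lay below 0 in each with FPKM as deposited, above 0 in complex II with libraries rescaled to a common total (0.013, where the median of all genes moved to 0.15), and above 0 in complexes II and III with quantile normalization (0.024 and 0.017). The median log2 fold change of Gas2l3 -/- over wildtype was -0.33 in complex I (26 of 35 tested members below 0), -0.17 in complex II (3 of 4), -0.25 in complex III (5 of 9), -0.36 in complex IV (13 of 16) and -0.32 in complex V (14 of 17). Cycs had 0.49. Over all 82 it was -0.32 with 61 below 0, beside a median of -0.009 and 51% below 0 over all tested genes. With Ndufa4 counted in complex IV instead of complex I, the medians were -0.35 and -0.32, for complex I and complex IV in that order. Without Atp5s and Atp5sl that of complex V stayed at -0.32. Without wildtype replicate 3 these medians were 0.045, 0.0070 and -0.069.

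**Figure D1:**
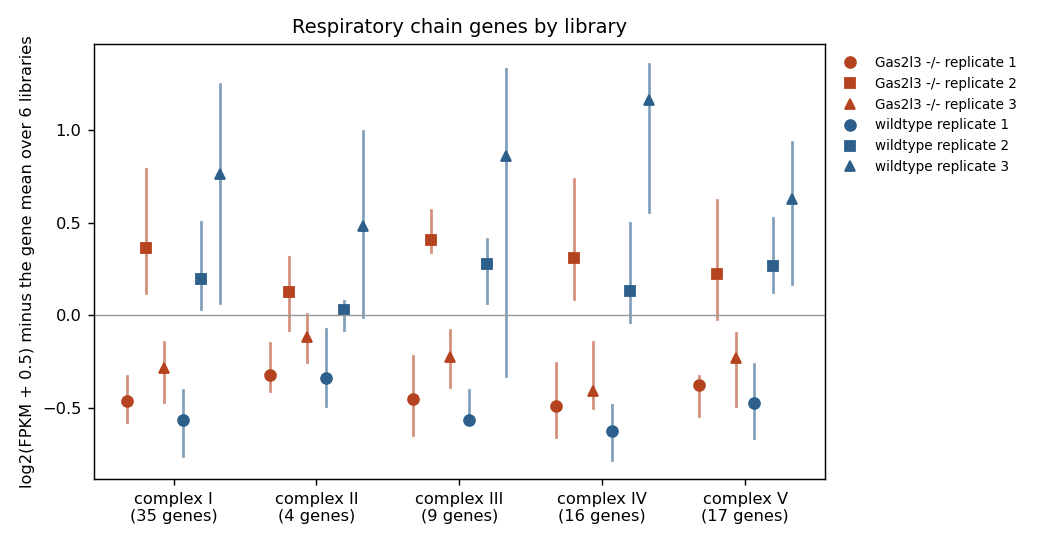
Median log2 deviation from the gene mean over the 6 libraries (y axis) of the tested genes of each complex (x axis), with Gas2l3 -/- libraries in orange to the left of wildtype libraries in blue; circles, squares and triangles are replicates 1, 2 and 3 and vertical lines span the quartiles over genes. Replicate 1 of both groups lies below 0 and replicate 2 above 0 in every complex, while replicate 3 is below 0 in Gas2l3 -/- and above 0 in wildtype.

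These medians depended on which wildtype libraries were used. The median deviation of the members from their gene means was -0.44, 0.34 and -0.28 in Gas2l3 -/- replicates 1, 2 and 3, and -0.55, 0.19 and 0.75 in wildtype replicates 1, 2 and 3. Without wildtype replicate 3 the median log2 fold change was 0.039 in complex I, 0.056 in complex II, -0.015 in complex III, 0.044 in complex IV and -0.069 in complex V. Without wildtype replicate 1 the medians for complexes I to V were -0.69, -0.31, -0.59, -0.82 and -0.63, and without Gas2l3 -/- replicate 2 they were -0.54, -0.28, -0.48, -0.66 and -0.46. Without Gas2l3 -/- replicate 1 they were -0.15, -0.13, 0.021, -0.19 and -0.20. Over all members the median without wildtype replicate 3 was -0.011, with 39 of 82 above 0, beside 50.1% of all tested genes. Within libraries of the same replicate number, Gas2l3 -/- was higher for 61 of 82 members in replicates 1 (median 0.09) and for 52 in replicates 2 (median 0.09), and lower for 65 in replicates 3 (median -1.12). Of all 12121 tested genes, 6203 were higher in replicates 1, 6407 were higher in replicates 2 and 5994 were lower in replicates 3. Across the members, deviations from the group means correlated between libraries of the same number at 0.27, 0.70 and 0.023 in replicates 1, 2 and 3. Only in replicates 2 was this the highest correlation of both libraries with the other group. Gas2l3 -/- replicate 3 correlated at 0.45 with wildtype replicate 1, and wildtype replicate 3 at 0.33 with Gas2l3 -/- replicate 1.

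**Figure D2:**
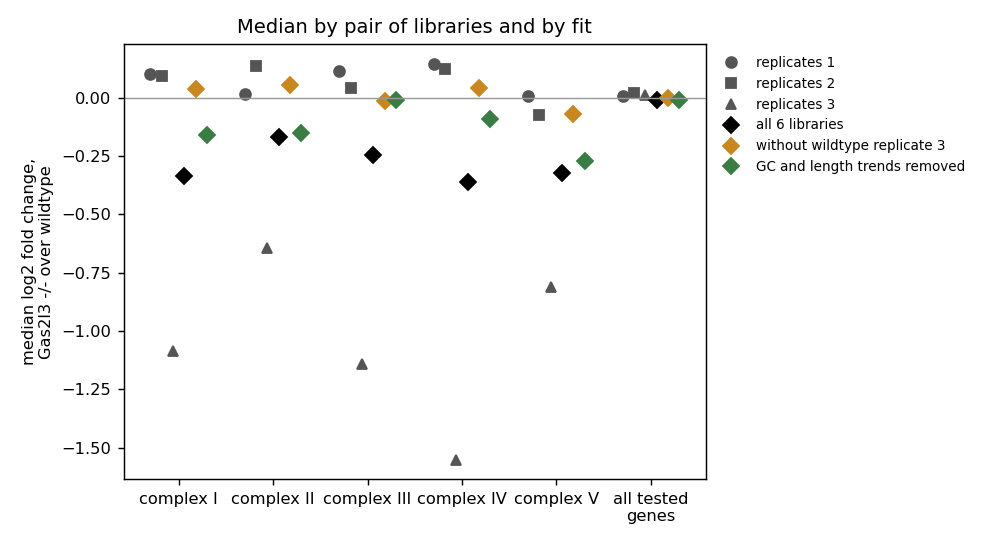
Median log2 fold change of Gas2l3 -/- over wildtype (y axis) for the genes of each complex and for all tested genes (x axis). Grey symbols compare libraries of 1 replicate number and diamonds are fits on all 6 libraries, without wildtype replicate 3, and with GC and length trends removed; the low values are those of replicates 3 (-1.09 in complex I, -1.55 in complex IV), and all genes stay near 0.

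In replicates 3 the difference was most negative in complex IV and least negative in complex II. The median log2 difference between Gas2l3 -/- replicate 3 and wildtype replicate 3 was -1.09 in complex I, -0.65 in complex II, -1.14 in complex III, -1.55 in complex IV and -0.81 in complex V. In replicates 1 the same medians were 0.10, 0.02, 0.12, 0.15 and 0.01 for complexes I to V. There 15 of 16 complex IV genes were higher in Gas2l3 -/- replicate 1, beside 6203 of all 12121 tested genes. In replicates 2 they were 0.09, 0.14, 0.04, 0.13 and -0.07.

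Wildtype replicate 3 was the highest library for 53 of 82 members (64.6%), beside 37.5% of all tested genes, and the lowest for 12 (14.6%), beside 33.9%. In that library 13 members stood at more than 3 times the mean of the other 5, and 9 at less than 0.5 of it. Across the 82 members its deviations correlated with GC content at 0.65, where the 5 other libraries lay between -0.53 and -0.10; this is across genes, which are not independent replicates, and no test was made. The 41 members with a GC content at or above the members' median of 50.3% had a median log2 fold change of -0.40, with 39 below 0, and the 41 below it had -0.04, with 22 below 0. Without wildtype replicate 3 these medians were -0.015 and -0.010. The part of GC content in the differences was not tested. The members are also short: their longest annotated transcripts had a median of 1088 bases, against 3357 bases over all tested genes. Length was also taken as the deposited values imply it, from normalized reads per FPKM, which can differ from the longest transcript. The members' deviations correlated with the log of this implied length at 0.67, -0.26 and 0.56 in Gas2l3 -/- replicates 1, 2 and 3. In wildtype replicates 1, 2 and 3 the correlations were 0.70, -0.32 and -0.34. With trends on GC content and implied length over all genes removed from each library, the medians for complexes I to V were -0.16, -0.15, -0.011, -0.09 and -0.27. Among the members themselves, correlations with GC content before that step were -0.10, -0.53 and -0.35 in Gas2l3 -/- replicates 1, 2 and 3. In wildtype replicates 1, 2 and 3 they were -0.23, -0.42 and 0.65. After it they were 0.60, -0.49 and -0.17 in Gas2l3 -/- replicates 1, 2 and 3, and 0.59, -0.41 and 0.099 in wildtype. The step thus reduced the members' trend in wildtype replicate 3 and left it in replicates 2. In replicates 1 of both groups it brought in a stronger trend of the opposite sign.

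**Figure D3:**
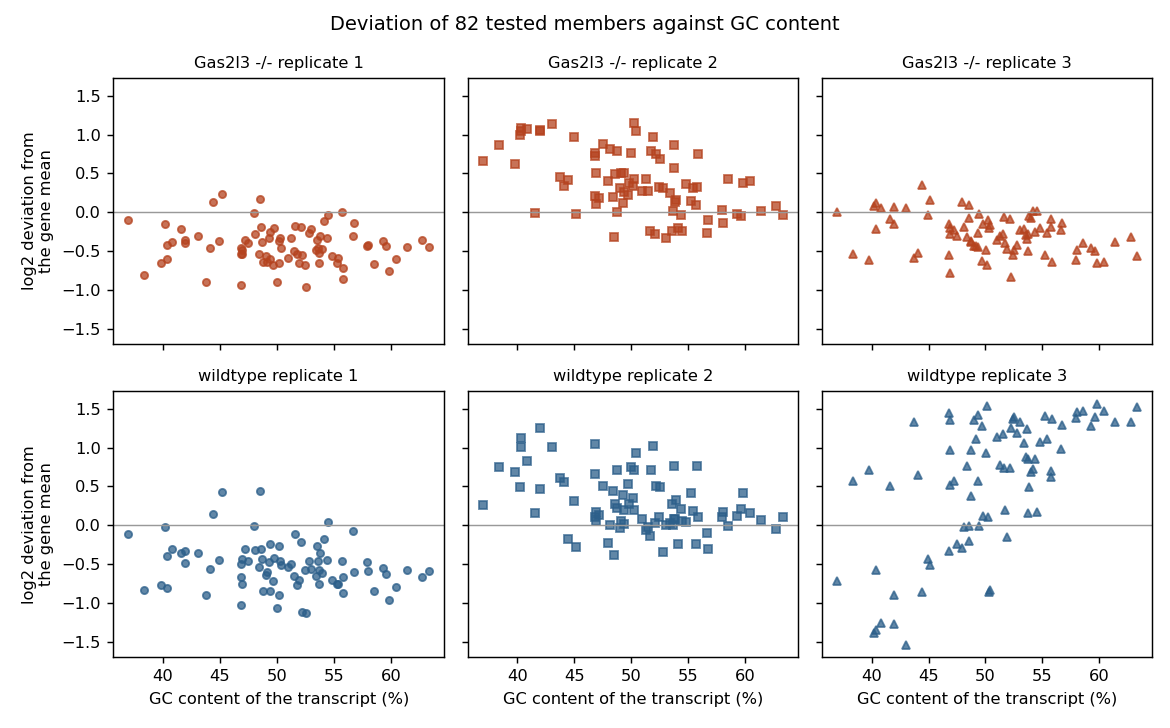
Each panel is 1 library, with Gas2l3 -/- above wildtype; points are the 82 tested genes, with GC content of the longest transcript in percent on the x axis and the log2 deviation from the gene's mean over 6 libraries on the y axis. Points climb with GC content in wildtype replicate 3 (correlation 0.65) and in none of the other 5 panels.

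Complex I takes electrons from NADH. Its FMN-binding subunit Ndufv1 (chr19:4007384-4012806, mm10, minus strand) stood at 390, 401 and 410 FPKM in Gas2l3 -/- libraries, against 456, 448 and 954 FPKM in wildtype libraries. Every Gas2l3 -/- library lay below every wildtype library. On the log2 scale the fold change came to -0.53 (SE 0.40, limma adjusted p = 0.966), and to -0.18 without wildtype replicate 3. Ndufv1 and Atp5a1 were the only tested members whose groups did not overlap with Gas2l3 -/- lower (2.44%), beside 4.74% of all tested genes, and 0 members were higher without overlap, beside 5.02%.

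Among the other complex I genes, Ndufs7, which holds the last iron-sulphur cluster before ubiquinone, was at 370, 483 and 352 FPKM in Gas2l3 -/- libraries and at 324, 579 and 1311 FPKM in wildtype libraries. Wildtype replicate 3 was far above the rest, and the other 5 libraries overlapped (log2 fold change -0.65, SE 0.52, limma adjusted p = 0.966; -0.12 without that library). Ndufa9, a subunit at the junction of the matrix arm and the membrane arm, had a fold change of the other sign, at 290, 383 and 319 FPKM in Gas2l3 -/- libraries, against 290, 247 and 238 FPKM in wildtype libraries. Gas2l3 -/- replicate 1 fell within the wildtype range, and the log2 fold change of 0.35 (SE 0.31, limma adjusted p = 0.966) was 0.30 without wildtype replicate 3. Ndufa11, a membrane subunit, stood at 95.9, 133 and 84.6 FPKM in Gas2l3 -/- libraries, against 93.6, 140 and 340 FPKM in wildtype libraries, a log2 fold change of -0.68 (SE 0.48) that was -0.16 without wildtype replicate 3.

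The accessory subunits Ndufb8 and Ndufb11 were among the most abundant members of complex I. Ndufb8 stood at 742, 1117 and 852 FPKM in Gas2l3 -/- libraries, against 611, 1077 and 2662 FPKM in wildtype libraries. Ndufb11 stood at 412, 1290 and 571 FPKM in Gas2l3 -/- libraries, against 366, 1123 and 2108 FPKM in wildtype libraries. For both, the Gas2l3 -/- library was higher in replicates 1 and 2 and lower in replicates 3, and without wildtype replicate 3 the log2 fold changes were 0.13 for Ndufb8 and 0.067 for Ndufb11. Ndufa4, which copurified with complex I before its place in complex IV was known, had 1206, 3855 and 1570 FPKM in Gas2l3 -/- libraries, against 1039, 3981 and 1219 FPKM in wildtype libraries. Replicate 2 was the highest library in both groups, wildtype replicate 3 did not stand out, and the log2 fold change was 0.18 (SE 0.67), or -0.069 without that library. Over the 35 tested complex I genes fold changes on the log2 scale ran between -0.69 and 0.60. Apart from the symbols of the rule, the acyl carrier protein Ndufab1, also part of complex I, had 70.2, 116 and 68.8 FPKM in Gas2l3 -/- libraries and 62.5, 121 and 165 FPKM in wildtype libraries.

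**Figure D4:**
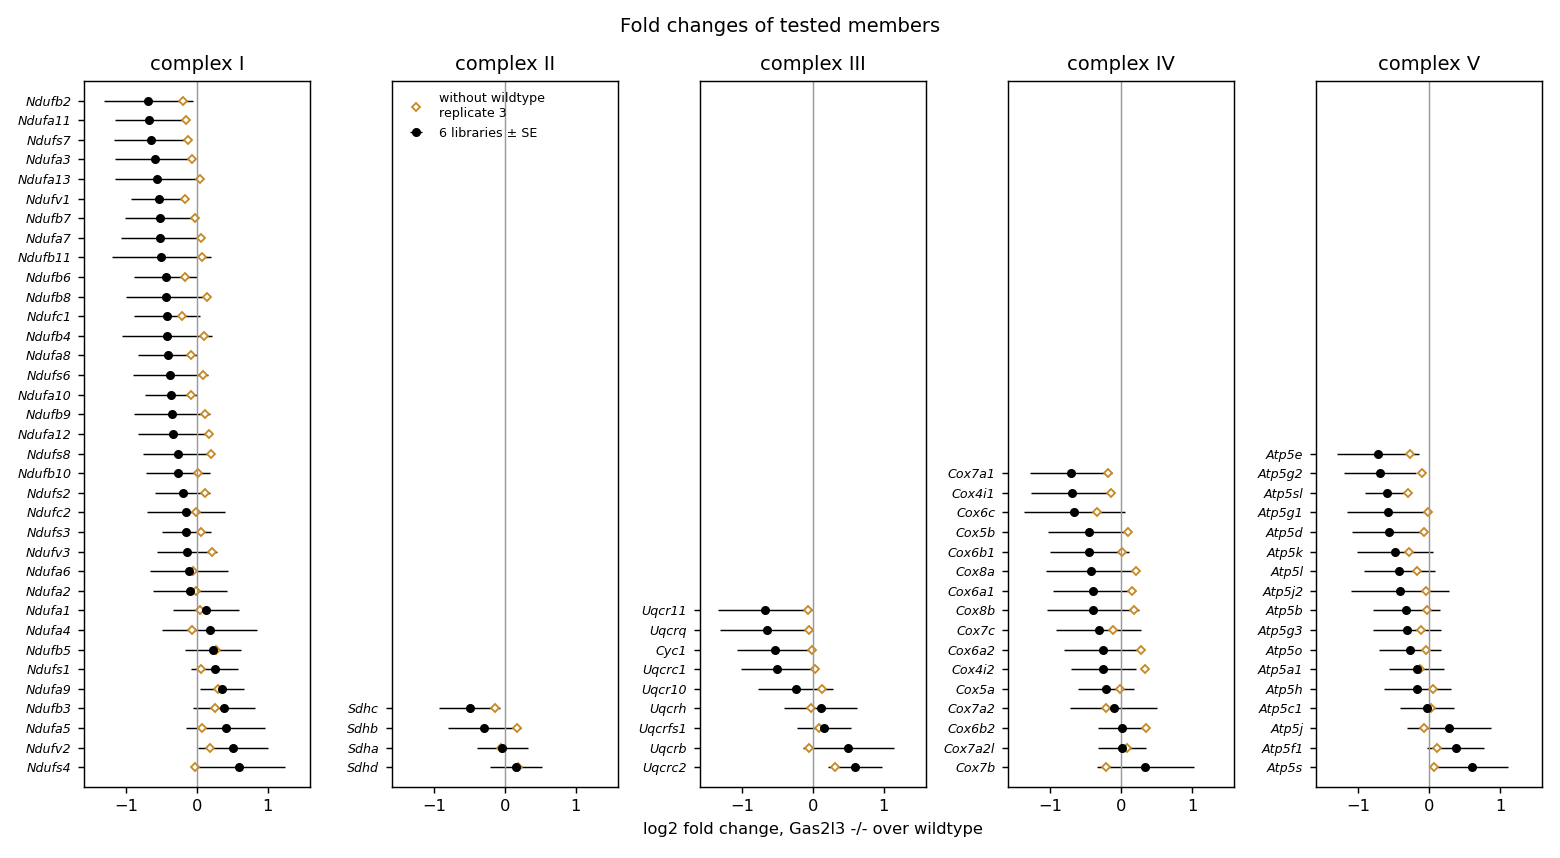
Log2 fold change of Gas2l3 -/- over wildtype (x axis) for the tested genes of each complex (rows), with black points and SE from all 6 libraries and open diamonds without wildtype replicate 3. Most black points lie left of 0 and the diamonds gather around 0, between -0.34 and 0.36.

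Complex II, succinate dehydrogenase, is also an enzyme of the tricarboxylic acid cycle and has no subunit from mitochondrial DNA. Its flavoprotein Sdha stood at 384, 273 and 363 FPKM in Gas2l3 -/- libraries, against 463, 262 and 339 FPKM in wildtype libraries. The groups overlapped, and wildtype replicate 3 lay between the others. The iron-sulphur subunit Sdhb had 742, 1234 and 894 FPKM in Gas2l3 -/- libraries, against 657, 1061 and 2167 FPKM in wildtype libraries. The membrane anchors differed from each other in sign: Sdhc had a log2 fold change of -0.50 (SE 0.43) and Sdhd one of 0.15 (SE 0.37), with limma adjusted p of 0.966 and 0.969 in that order; without wildtype replicate 3 they were -0.14 and 0.19. Sdhc stood at 323, 422 and 327 FPKM in Gas2l3 -/- libraries, against 311, 490 and 828 FPKM in wildtype libraries. Sdhd stood at 481, 819 and 568 FPKM in Gas2l3 -/- libraries, against 486, 584 and 573 FPKM in wildtype libraries.

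In complex III the core subunits Uqcrc1 and Uqcrc2, which pair with each other in the matrix part of the complex, stood on opposite sides of the other libraries in wildtype replicate 3. Uqcrc1 stood at 459, 427 and 458 FPKM in Gas2l3 -/- libraries, against 361, 535 and 1349 FPKM in wildtype libraries. Uqcrc2 stood at 512, 621 and 596 FPKM in Gas2l3 -/- libraries, against 517, 412 and 258 FPKM in wildtype libraries. The same wildtype library was thus the highest for Uqcrc1 and the lowest for Uqcrc2, whose transcripts have 53.0% and 44.4% GC. The log2 fold changes were -0.51 (SE 0.50) and 0.59 (SE 0.38) with limma adjusted p = 0.966 for each, and 0.026 and 0.32 without wildtype replicate 3.

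Cyc1, the cytochrome c1 that hands electrons to cytochrome c, had 753, 1045 and 786 FPKM in Gas2l3 -/- libraries, against 689, 1077 and 2583 FPKM in wildtype libraries (log2 fold change -0.54, SE 0.54). Cycs, the mobile carrier itself, had 80.5, 220 and 109 FPKM in Gas2l3 -/- libraries, against 84.7, 187 and 43.4 FPKM in wildtype libraries (0.49, SE 0.57). Both had limma adjusted p = 0.966, and without wildtype replicate 3 both log2 fold changes were near 0, at -0.015 for each. For the small subunits the log2 fold change was -0.66 (SE 0.65) in Uqcrq and -0.68 (SE 0.67) in Uqcr11, and without wildtype replicate 3 it was -0.056 and -0.066. Uqcrq was at 889, 1765 and 868 FPKM in Gas2l3 -/- libraries and at 744, 1784 and 4037 FPKM in wildtype libraries. Uqcr11 was at 730, 1599 and 784 FPKM in Gas2l3 -/- libraries and at 631, 1637 and 3649 FPKM in wildtype libraries. Uqcrh, the hinge protein that binds cytochrome c1, was higher in Gas2l3 -/- in each of the 3 replicate numbers by small steps, at 983, 2299 and 1219 FPKM, against 957, 2126 and 1077 FPKM in wildtype libraries.

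Complex IV, cytochrome c oxidase, had its highest transcript in Cox4i1, the subunit IV form of most tissues. Cox4i1 stood at 1749, 2115 and 1671 FPKM in Gas2l3 -/- libraries, against 1549, 2641 and 6409 FPKM in wildtype libraries. On the log2 scale the fold change came to -0.69 (SE 0.59, limma adjusted p = 0.966), and to -0.14 without wildtype replicate 3, which alone lay far above the rest. Cox6c, a small membrane subunit, had 1063, 3388 and 1189 FPKM in Gas2l3 -/- libraries, against 1003, 4216 and 4009 FPKM in wildtype libraries. Cox6b1, which sits on the side facing the intermembrane space, had 1349, 2441 and 1587 FPKM in Gas2l3 -/- libraries, against 1395, 2137 and 4449 FPKM in wildtype libraries.

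The muscle and general forms were compared as log2 ratios within a library, which removes what a library does to both genes alike. There were 5 ratios, each tested between the groups by a two-sided exact permutation test whose smallest possible p with 3 against 3 is 0.1, and p-values were adjusted over the 5. None could therefore pass 0.05.

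Subunit VIa held both forms at similar levels per length. Cox6a2, the muscle form (chr7:128205435-128206387, mm10, minus strand), had 1258, 1883 and 1130 FPKM in Gas2l3 -/- libraries, against 1098, 1194 and 3467 FPKM in wildtype libraries. Cox6a1, the general form (chr5:115345642-115348981, minus strand), had 1025, 1389 and 1058 FPKM in Gas2l3 -/- libraries, against 830, 1271 and 3303 FPKM in wildtype libraries. Both were highest in wildtype replicate 3, but their ratio was not. Cox6a2 stood at 1.23, 1.36 and 1.07 times Cox6a1 in Gas2l3 -/- libraries, against 1.32, 0.940 and 1.05 times in wildtype libraries. The groups overlapped (difference in log2 ratio 0.15, exact permutation p = 0.4, adjusted p = 0.625), and with GC and length trends removed the difference was -0.12. With those trends removed the log2 ratio was highest in wildtype replicate 3, at 0.81, against -0.16 to 0.47 elsewhere.

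Subunit VIIa had the ratio that varied most between the wildtype libraries. Cox7a1, the muscle form (chr7:30184144-30186078, plus strand), had 494, 863 and 530 FPKM in Gas2l3 -/- libraries, against 460, 1042 and 2066 FPKM in wildtype libraries. Cox7a2, the general form (chr9:79755361-79759878, minus strand), had 596, 1833 and 676 FPKM in Gas2l3 -/- libraries, against 574, 1907 and 844 FPKM in wildtype libraries. The ratio of Cox7a1 to Cox7a2 was 0.829, 0.471 and 0.784 in Gas2l3 -/- libraries, against 0.802, 0.546 and 2.45 in wildtype libraries. Only in wildtype replicate 3 did the muscle form exceed the general one. The difference in log2 ratio was -0.60 (exact permutation p = 0.5, adjusted p = 0.625) and 0.026 without that library. Cox7a2l, counted in complex IV by its symbol, averaged 182 ± 42.3 FPKM in Gas2l3 -/- libraries and 181 ± 42.6 FPKM in wildtype libraries (SD, n = 3 each).

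Subunit VIII had similar ratios in all 6 libraries. Cox8b, the muscle form in the mouse (chr7:140898945-140900446, minus strand), had 557, 1540 and 589 FPKM in Gas2l3 -/- libraries, against 501, 984 and 2360 FPKM in wildtype libraries. Cox8a, the general form (chr19:7215153-7217616, minus strand), had 1103, 2345 and 1325 FPKM in Gas2l3 -/- libraries, against 972, 1740 and 4854 FPKM in wildtype libraries. Cox8b stood at 0.505, 0.656 and 0.445 times Cox8a in Gas2l3 -/- libraries, against 0.515, 0.565 and 0.486 times in wildtype libraries. The difference in log2 ratio was 0.020 (exact permutation p = 0.9, adjusted p = 0.9).

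**Figure D5:**
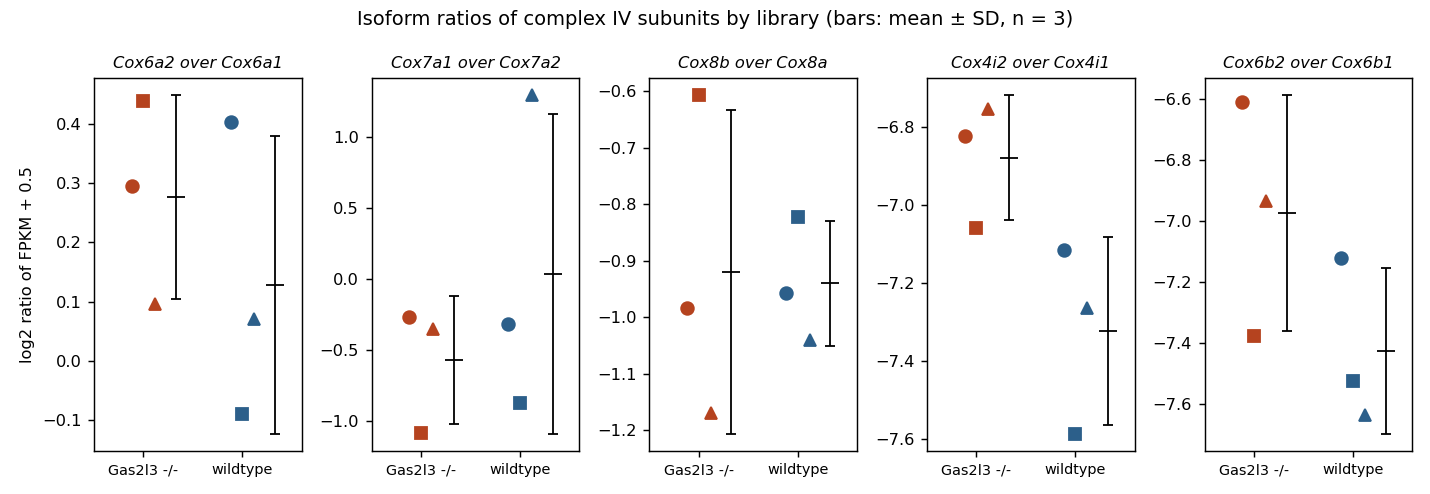
Log2 ratio of FPKM + 0.5 (y axes, each panel with its own range) of the tissue-restricted over the general form for 5 pairs of complex IV genes, with Gas2l3 -/- libraries left of wildtype libraries; circles, squares and triangles are replicates 1, 2 and 3, and bars give mean ± SD over 3 libraries. The groups overlap in every panel except that of Cox4i2 over Cox4i1, and wildtype replicate 3 stands alone in that of Cox7a1 over Cox7a2.

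The remaining pairs set a rare form against an abundant one. Cox4i2, the subunit IV form known from lung and from cells that sense oxygen, had 14.95, 15.38 and 14.98 FPKM in Gas2l3 -/- libraries, against 10.7, 13.2 and 41.2 FPKM in wildtype libraries. It made up 0.847%, 0.722% and 0.889% of the sum with Cox4i1 in Gas2l3 -/- libraries, against 0.684%, 0.499% and 0.639% in wildtype libraries. All Gas2l3 -/- libraries lay above all wildtype libraries, with a difference in log2 ratio of 0.44 (exact permutation p = 0.1, the smallest that 3 against 3 allows, adjusted p = 0.5). Cox6b2, the subunit VIb form known from testis, had 13.3, 14.2 and 12.5 FPKM in Gas2l3 -/- libraries, against 9.54, 11.1 and 21.9 FPKM in wildtype libraries. Its share of the sum with Cox6b1 was 0.978%, 0.578% and 0.780% in Gas2l3 -/- libraries, against 0.679%, 0.517% and 0.489% in wildtype libraries, higher in Gas2l3 -/- in each replicate number but overlapping over the 3 (difference 0.45, exact permutation p = 0.2, adjusted p = 0.5).

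The DNA before the starts of these genes is shown for the muscle and general forms of subunits VIa, VIIa and VIII that have an entry in the table, so that the forms can be set beside each other; Cox6a2 has none. The sequences are from RefSeq on GRCm38.p6, the build of mm10, 250 bases before the start that RefSeq annotates and 5′ to 3′ on the gene's strand. They lie at chr5:115348959-115349208 (Cox6a1), chr9:79759854-79760103 (Cox7a2), chr19:7217617-7217866 (Cox8a) and chr7:140900447-140900696 (Cox8b) on the minus strand and at chr7:30183921-30184170 (Cox7a1) on the plus strand. The gene spans given above come from GENCODE, whose starts lie further upstream for some: the last 23 bases of the Cox6a1 window, 27 of Cox7a1 and 25 of Cox7a2 fall inside those spans. Capitals mark matches, on either strand, to the core of the NRF1 motif (GCGCA followed directly by TGCGC), to CCGGAAG, the core bound by ETS factors such as GABP, and to the E-box CAGCTG.
Cox6a1: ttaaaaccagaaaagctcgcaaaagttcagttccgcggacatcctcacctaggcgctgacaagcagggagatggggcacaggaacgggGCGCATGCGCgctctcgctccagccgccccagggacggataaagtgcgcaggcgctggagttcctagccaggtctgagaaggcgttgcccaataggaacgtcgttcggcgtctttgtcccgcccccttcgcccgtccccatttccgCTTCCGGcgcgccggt
Cox7a1: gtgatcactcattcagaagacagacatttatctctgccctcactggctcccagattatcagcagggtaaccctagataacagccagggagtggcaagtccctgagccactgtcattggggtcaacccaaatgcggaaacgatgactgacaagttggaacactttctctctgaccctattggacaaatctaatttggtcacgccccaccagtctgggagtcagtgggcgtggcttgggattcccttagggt
Cox7a2: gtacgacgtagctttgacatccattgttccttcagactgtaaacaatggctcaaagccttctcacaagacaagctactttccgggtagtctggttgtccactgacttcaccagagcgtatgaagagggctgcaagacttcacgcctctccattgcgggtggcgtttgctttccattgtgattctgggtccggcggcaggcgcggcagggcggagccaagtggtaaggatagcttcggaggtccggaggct
Cox8a: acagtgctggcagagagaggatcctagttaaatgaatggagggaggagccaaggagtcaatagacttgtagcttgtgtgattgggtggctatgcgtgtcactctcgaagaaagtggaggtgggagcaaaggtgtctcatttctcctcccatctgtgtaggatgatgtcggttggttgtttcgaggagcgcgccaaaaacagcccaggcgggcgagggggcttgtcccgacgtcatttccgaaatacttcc
Cox8b: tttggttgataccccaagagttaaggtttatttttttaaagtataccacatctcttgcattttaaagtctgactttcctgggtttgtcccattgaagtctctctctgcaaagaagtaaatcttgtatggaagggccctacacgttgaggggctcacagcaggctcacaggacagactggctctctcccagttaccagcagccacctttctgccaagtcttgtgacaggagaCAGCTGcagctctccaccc
Cox6a1 held an NRF1 core at -162 and an ETS core at -16 from the RefSeq start, with the ETS core inside the GENCODE span; Cox7a1, Cox7a2 and Cox8a held none of the motifs searched, and Cox8b held an E-box at -19. NRF1 and GABP are known activators of nuclear genes for respiratory subunits. Among the 67 members with a sequence in the table, 4 held the NRF1 core (5.97%), beside 0.877% of 27025 genes: Cox6a1, Atp5g2, Atp5k and Ndufa11. The ETS core was found in 12 (17.9%), beside 7.83%. The E-box was found in 6 (8.96%, beside 14.7%), TATAAA in 6 (8.96%, beside 14.3%) and AAGGTCA, the half-site bound by oestrogen-related receptors, in 5 (7.46%, beside 4.70%). None of these letter strings overlaps another in the 5 sequences shown. A match is not a bound site, and no match says only that these letters were not in the window.

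Complex V, the ATP synthase, held the most abundant member, the catalytic beta subunit Atp5b. It stood at 2721, 2623 and 2951 FPKM in Gas2l3 -/- libraries, against 2847, 2809 and 5147 FPKM in wildtype libraries. Gas2l3 -/- was lower in each replicate number, by little in replicates 1 and 2 (log2 fold change -0.32, SE 0.48, limma adjusted p = 0.966; -0.034 without wildtype replicate 3). The alpha subunit Atp5a1, which alternates with beta in the catalytic head, had 1473, 1278 and 1532 FPKM in Gas2l3 -/- libraries, against 1558, 1566 and 1701 FPKM in wildtype libraries. The groups did not overlap, with a log2 fold change of -0.18 (SE 0.39, limma adjusted p = 0.969), or -0.13 without wildtype replicate 3.

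The c subunit, whose ring turns in the membrane, is encoded by Atp5g1, Atp5g2 and Atp5g3, which make the same mature protein with different import signals. Atp5g3 was the main source, with 73.1%, 69.2% and 74.3% of their summed FPKM in Gas2l3 -/- libraries, against 72.8%, 74.2% and 56.1% in wildtype libraries. The wildtype replicate 3 value was the lowest of the 6. Atp5g1 gave 24.3%, 28.3% and 23.3% in Gas2l3 -/- libraries, against 24.5%, 23.4% and 39.5% in wildtype libraries. Atp5g2 gave between 2.41% and 2.68% in Gas2l3 -/- libraries, against between 2.45% and 4.36% in wildtype libraries. Its log2 fold change was -0.69 (SE 0.51), and -0.10 without wildtype replicate 3, with 73.0, 97.7 and 67.6 FPKM in Gas2l3 -/- libraries and 66.2, 108 and 287 FPKM in wildtype libraries.

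The epsilon subunit of the central stalk, Atp5e, had the lowest log2 fold change of all members, -0.73 (SE 0.58, limma adjusted p = 0.966), with 742, 1388 and 768 FPKM in Gas2l3 -/- libraries, against 720, 1716 and 2893 FPKM in wildtype libraries. The membrane subunit Atp5j2 had 1317, 4152 and 1741 FPKM in Gas2l3 -/- libraries, against 1170, 4105 and 4680 FPKM in wildtype libraries. The groups overlapped for both, and without wildtype replicate 3 the log2 fold changes were -0.27 for Atp5e and -0.048 for Atp5j2. Atp5sl, now known as a distal membrane arm assembly factor of complex I, had the smallest unadjusted p of all members (0.1). It stood at 19.99, 21.9 and 21.02 FPKM in Gas2l3 -/- libraries, against 21.4, 31.2 and 47.9 FPKM in wildtype libraries, lower in each replicate number. On the log2 scale it differed by -0.59 (SE 0.32, limma adjusted p = 0.966), by -0.30 without wildtype replicate 3 and by -0.49 with trends removed (unadjusted p = 0.0295, limma adjusted p = 0.582). Atp5s, a coupling factor, had the highest log2 fold change of all members, 0.61 (SE 0.50), and 0.068 without wildtype replicate 3, with 9.79, 22.3 and 11.6 FPKM in Gas2l3 -/- libraries, against 10.8, 15.7 and 3.87 FPKM in wildtype libraries. Over all members, 7 of 82 were higher in Gas2l3 -/- in each of the 3 replicate numbers, beside 16.6% of all tested genes, and 5 were lower in each, beside 13.8%.

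The factors that assemble these complexes were not called either. No gene passed in any of the lists of assembly factors, and their medians were 0.22 for complex I (10 of 15 tested genes above 0), 0.45 for complex II (3 of 4), 0.05 for complex III (3 of 6), -0.14 for complex IV (8 of 22) and 0.21 for complex V with its inhibitor (4 of 7). Without wildtype replicate 3 the same medians were 0.020, 0.13, 0.082, 0.016 and 0.059, so the distance between these lists and the members depended on that library. Atp5sl and Atp5s are counted in the complex I and complex V lists too. Ndufaf1, an assembly factor of complex I, had 32.2, 39.9 and 36.2 FPKM in Gas2l3 -/- libraries, against 26.3, 34.98 and 17.6 FPKM in wildtype libraries. Pet100, an assembly factor of complex IV, had 11.02, 21.6 and 14.8 FPKM in Gas2l3 -/- libraries, against 14.5, 35.7 and 62.9 FPKM in wildtype libraries (log2 fold change -1.05, SE 0.51, limma adjusted p = 0.966; -0.57 without wildtype replicate 3). Sco2 and Pet117 were listed at 0 in every library, which does not by itself show absence.

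Beside the respiratory chain, the 18 genes of the tricarboxylic acid cycle and its entry had a median log2 fold change of -0.019, with 9 above and 9 below 0. Their summed FPKM ran between 5946 and 6422 in Gas2l3 -/- libraries and between 6084 and 7304 in wildtype libraries. Fh1, fumarase, had 296, 432 and 338 FPKM in Gas2l3 -/- libraries, against 298, 263 and 189 FPKM in wildtype libraries. The 19 genes of the mitochondrial membranes and import had a median of 0.084 (12 above 0), and without wildtype replicate 3 the medians of these lists were 0.037 and -0.014. For the 19 known regulators of respiratory genes it was -0.13 (14 below 0) and -0.21 without wildtype replicate 3. Their summed FPKM did not overlap, at 300.5 to 331.6 in Gas2l3 -/- libraries against 357.1 to 512.3 in wildtype libraries, and no test was made of these sums. As a share of all FPKM they overlapped, at 0.0726%, 0.0495% and 0.0617% in Gas2l3 -/- libraries and 0.0842%, 0.0594% and 0.0649% in wildtype libraries. Of these, Esrra, the oestrogen-related receptor alpha, stood at 72.2, 98.3 and 77.3 FPKM in Gas2l3 -/- libraries, against 69.4, 111 and 244 FPKM in wildtype libraries. None of the genes in these lists was called by limma.

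The tissue matched its label by markers of the heart. The 12 cardiomyocyte genes summed to 32489 to 37297 FPKM in Gas2l3 -/- libraries and 36890 to 54036 FPKM in wildtype libraries, with 11 of 12 below 0 and a median log2 fold change of -0.41, which was -0.21 without wildtype replicate 3. The 6 ventricular genes were all below 0 (median -0.53; 5 of 6 and -0.25 without wildtype replicate 3) and summed to 16557 to 23246 FPKM in Gas2l3 -/- libraries, against 18020 to 43816 FPKM in wildtype libraries. The 7 atrial genes summed to 6516 to 8555 FPKM in Gas2l3 -/- libraries, against 2078 to 5302 FPKM in wildtype libraries. They did not share a direction, with 3 above 0 and 4 below, at log2 fold changes between -1.59 and 1.66. Their median was -0.014 (0.24 without wildtype replicate 3). Most of that sum was Nppa, the atrial natriuretic peptide, at 6523, 4581 and 6005 FPKM in Gas2l3 -/- libraries, against 1031, 2273 and 2408 FPKM in wildtype libraries (log2 fold change 1.66, SE 0.52, limma adjusted p = 0.966; 1.88 without wildtype replicate 3). In whole hearts, fewer cells of a type and less RNA per cell cannot be told apart. The part of cell makeup in the subunits' values was not tested.

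Other cell types gave low sums or sums that overlapped over all 6 libraries. Of 14 skeletal muscle genes, which could bring muscle forms of complex IV, Myod1, Myf5, Pax7 and Myh4 were at 0 in every library, and the sum was 53.3 to 182.3 FPKM in Gas2l3 -/- libraries, against 33.7 to 181.7 FPKM in wildtype libraries, with a median log2 fold change of -1.01 over its 3 tested genes (-0.81 without wildtype replicate 3). Ucp1, which defines brown fat, was at 1.02 FPKM in Gas2l3 -/- replicate 2 and at 0 elsewhere; the 8 brown fat genes summed to 29.5 to 33.7 FPKM in Gas2l3 -/- libraries, against 27.6 to 46.4 FPKM in wildtype libraries, with a median of -0.22 over 3 tested genes (-0.29 without wildtype replicate 3). The fibroblast genes (6 of 8 above 0) had a median of 0.35, the endothelial genes (6 of 8) 0.12, and the macrophage genes (6 of 8) 0.36. Without wildtype replicate 3 all 8 genes of each of these lists were above 0, with medians of 0.51, 0.47 and 0.48. Fibroblast genes summed to 1113 to 1363 FPKM in Gas2l3 -/- libraries, against 885, 798 and 1679 FPKM in wildtype libraries. The same sums were 355 to 419 against 277, 224 and 451 FPKM for endothelial genes. For macrophage genes they were 84.6 to 136.8 against 52.5, 77.6 and 111 FPKM. In each list every Gas2l3 -/- sum lay above those of wildtype replicates 1 and 2. Groups did not overlap, with Gas2l3 -/- higher, for 2 fibroblast, 2 endothelial and 4 macrophage genes of 8 each, beside 5.02% of all tested genes. Smooth muscle genes (4 of 6 above 0) had 0.071 and epicardial genes (3 of 5) 0.031, or 0.30 and 0.11 without wildtype replicate 3. The 4 hemoglobin genes of the erythroid list were listed at 0 in every library, which does not by itself show absence. This list summed to 123.5, 29.6 and 45.2 FPKM in Gas2l3 -/- libraries, against 44.4, 49.7 and 28.5 FPKM in wildtype libraries. Its 3 tested genes were above 0, with a median of 0.42 (0.21 without wildtype replicate 3). Their median log2 deviation was highest in Gas2l3 -/- replicate 1, at 1.38. The 2 tested genes of the liver and lung list, Alb and Afp, were above 0 with at most 7.6 FPKM. None of these marker genes was called.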

How the data were processed

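Poly(A) RNA libraries were made with the NEBNext Ultra kit, per the labels' protocols. The authors deposited FPKM per gene and library and a comparison table, with other values (mean, log2 fold change, p-value). FastQC, DESeq2 and mm10 are named, per the submitters' processing notes; the aligner, the counter and the annotation were not given in the sources used here. The direction of the authors' fold changes is not stated and was taken from the sign, which matched the present fit for 95.2% of tested genes.

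Each gene's FPKM shares over the 6 libraries were scaled by the mean normalized count of the authors' comparison table. With 1 factor per library, these were whole multiples of 1 read for 100% of 94235 values above 0 (within 0.01 reads). Reads could thus be recovered. Genes with 1 FPKM or more in at least 3 libraries (12121) were tested with limma 3.58.1 in R 4.3.3 (lmFit, eBayes with intensity trend) on log2(FPKM + 0.5), two-sided, Benjamini-Hochberg over all genes, called under 0.05. The script was tested on simulated data. GC content and coordinates came from the longest GENCODE M21 transcript on GRCm38 (99.6% of tested genes). Trends on GC content and on the log2 of normalized reads per FPKM, the length implied by the deposited values, were removed by loess (span 0.3).

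Libraries of the same replicate number deviated together across genes (r = 0.47, 0.44 and 0.19, each above 0.1), so the numbers were taken to pair libraries; the labels give numbers only, so this pairing is read from the values. Members, lists and the rule for named genes were chosen with earlier results of these data known. Named were all genes of the isoform ratios, Cyc1, Cycs, the 4 members with the smallest p and the 3 most abundant of each complex, and up to 3 genes of each other list; Ndufab1, Cox7a2l, Atp5a1, Atp5g1, Atp5l, Ndufb4, markers with values at 0 and the untested members were added after their values were seen. Alternatives were other pseudocounts, filters, scalings, weights, the replicate block, voom on recovered reads, removed trends and each library left out.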

Additional observations from a re-analysis of the deposited data

How the results depend on the processing

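No member was called under any alternative, and an adjusted p under 0.1 gave none either. Over all genes the count was 1 with trends removed (Ppp1r1b) and 2 with library weights (Ppp1r1b and Mir6981), against 0. With the replicate block the call count was 0 of 82, as it was with the block and trends removed (adjusted p as low as 0.427), and the block changed no member's call; added to the fit with trends removed, it ended the call of Ppp1r1b (0 genes called, lowest adjusted p 0.0606). Rescaling to a common total moved the median of all genes to 0.15 and those of complexes I to V to -0.15, 0.01, -0.07, -0.18 and -0.14; with quantile normalization these were -0.11, 0.02, 0.02, -0.14 and -0.03. Leaving out 1 library gave medians of -0.69 to 0.039 (complex I), -0.31 to 0.056 (II), -0.59 to 0.021 (III), -0.82 to 0.044 (IV) and -0.63 to -0.069 (V); the low ends came without wildtype replicate 1 and the high ends without wildtype replicate 3, except in complex III.

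Signs of 19 of 36 named members changed under some alternative, with no call in any. Leaving out 1 library gave log2 fold changes of -0.62 to 0.33 for Cox4i2, -0.84 to 0.16 for Cox6a1, -0.55 to 0.28 for Cox6a2, -0.83 to 0.0070 for Cox6b1, -0.22 to 0.36 for Cox6b2, -0.62 to 0.38 for Cox7a2, -0.95 to 0.21 for Cox8a, -0.94 to 0.18 for Cox8b, -0.015 to 1.03 for Cycs, -0.32 to 0.78 for Ndufa4, -1.19 to 0.067 for Ndufb11, -0.93 to 0.13 for Ndufb8, -0.24 to 0.17 for Sdha, -0.70 to 0.16 for Sdhb, -0.063 to 0.32 for Sdhd, -0.92 to 0.026 for Uqcrc1 and -0.25 to 0.47 for Uqcrh. In other settings, quantile normalization gave 0.088 for Atp5g3, 0.053 for Cox6a2, 0.061 for Cox7a2 and 0.086 for Sdha, and a common total gave 0.072 for Cox7a2 and 0.14 for Sdha. Removed trends, with or without the replicate block, gave 0.043 for Cox4i2, 0.031 for Cox6a1 and 0.0010 for Cox7a2. Library weights gave -0.12 for Atp5s, 0.12 for Cox4i2, -0.37 for Cycs, -0.76 for Ndufa4, 0.25 for Sdha and -0.46 for Uqcrh. Voom on recovered reads gave -0.021 for Cox6b2. Among the isoform ratios, removed trends, with or without the replicate block, gave -0.12 for Cox6a2 over Cox6a1 and -0.036 for Cox8b over Cox8a. Leaving out 1 library gave -1.06 to 0.026 for Cox7a1 over Cox7a2 and -0.14 to 0.14 for Cox8b over Cox8a. The cause of these changes was not tested. With 3 libraries a group, exact tests of the ratios could not go below 0.1, and intervals from reads cover counting error only.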
